A study of Mus musculus with 34 samples.

Results

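The effect of LDL on the transcripts of bone marrow-derived macrophages with an activating Jak2 allele was compared with its effect in WT macrophages, gene by gene, as the difference between both LDL effects. The comparison used 12 of the 34 RNA sequencing libraries of the series, all those of both genotypes in the main set of 24, with 3 in each of 4 groups. The other 12 of that set, from Dnmt3aKO (Dnmt3afl/fl;Vav-Cre) and Tet2KO (Tet2fl/fl;Vav-Cre) macrophages, entered the same fit. They added to the estimate of spread behind the SE and adjusted p of the comparison. Jak2VF macrophages came from Jak2V617F/WT;Vav-Cre mice and WT macrophages from mice with Vav-Cre alone. Vav-Cre drives recombination in blood cells, and both genotypes carry it. The groups were Jak2VF with LDL, Jak2VF with vehicle, WT with LDL and WT with vehicle. The mice were 10 to 14 weeks old, and their marrow cells grew for 6 days with M-CSF at 10 ng/ml before a rest of 24 h. LDL was given at 200 mg/dL for 24 h, and vehicle replaced it in the controls. No label says whether the 3 libraries of a group are separate mice or separate cultures, so p-values measure the spread between libraries, which may be technical.

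JAK2 is a kinase that sits on the receptors of cytokines such as erythropoietin, thrombopoietin and GM-CSF and phosphorylates STAT factors. The V617F exchange makes it active without a cytokine, and it is found in clonal hematopoiesis, in which a mutant stem cell gives rise to a large share of the blood cells. Macrophages that take up LDL store its cholesterol, lower their own sterol synthesis through SREBP factors and switch on lipid handling genes through LXR and PPAR receptors. M-CSF keeps cultured macrophages dividing, and MHC class II molecules present peptides to helper T cells.

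Total counts in the 12 libraries ran from 31527505 to 43904761, and 19444 genes had enough counts to be tested. The common biological coefficient of variation is the typical spread of a gene between libraries of a group beyond counting error. It was 0.137 in the fit of the whole main set and 0.152 with only the 12 libraries in the fit. All 15 listed genes of macrophage identity were measured, and their CPM (counts scaled to a common library total after TMM) summed to 27800 to 33400 in Jak2VF with LDL, 29700 to 39300 in Jak2VF with vehicle, 34800 to 48300 in WT with LDL and 35400 to 43700 in WT with vehicle. No libraries of a group were duplicates, since counts of the closest pair (Jak2VF LDL libraries 1 and 3) differed by a chi-square of 4.54 per degree of freedom. The counts do not show the V617F base. Jak2 itself had 74.7, 64.2 and 71.1 CPM in Jak2VF with LDL, 54.6, 58.6 and 68.2 CPM in Jak2VF with vehicle, 75.6, 97.7 and 71.3 CPM in WT with LDL and 78.7, 85.7 and 91.7 CPM in WT with vehicle. Its LDL effects differed by 0.28 ± 0.19 on the log2 scale (SE, adjusted p = 0.335), which did not pass the test.

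The libraries differed in how counts followed transcript length. For each library the deviation of a gene's log2 CPM from its mean over the 24 libraries of the main set was set against the gene's exon length, and the slope is the change for each doubling of that length. In Jak2VF with LDL the slopes of libraries 1, 2 and 3 were 0.0489, -0.00731 and 0.0467, and in Jak2VF with vehicle -0.086, -0.0459 and 0.0222. They were -0.0848, 0.0219 and -0.00533 in WT with LDL, and -0.0335, 0.00917 and 0.0448 in WT with vehicle. Jak2VF vehicle library 1 and WT LDL library 1 had the steepest slopes, both toward short transcripts. The groups overlapped, but their means ran with the comparison: 0.0294 ± 0.0318 in Jak2VF with LDL, -0.0365 ± 0.0547 in Jak2VF with vehicle, -0.0228 ± 0.0554 in WT with LDL and 0.00682 ± 0.0392 in WT with vehicle (SD, n = 3 each). The difference of LDL differences in slope was 0.0956 (exact permutation test of the genotype labels within treatment, two-sided p = 0.1, where the smallest possible is 0.005). With 1 library left out it was 0.0644 to 0.125, with exact permutation p from 0.035 (without Jak2VF vehicle library 3) to 0.205 (without Jak2VF vehicle library 1). Without Jak2VF vehicle library 1 and WT LDL library 1 together it was 0.0396 (exact permutation p = 0.39).

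Genes followed the same trend. The median difference between the LDL effects, Jak2VF minus WT, was -0.253 for the 2667 genes with under 1 kb of exon, -0.297 at 1 to 2 kb, -0.153 at 2 to 4 kb, 0.0965 at 4 to 8 kb and 0.331 for the 2630 genes over 8 kb. Across 19417 genes, which are not independent replicates, Pearson's r between the difference and log2 exon length was 0.232 and Spearman's rho 0.337. A length offset, the fitted length trend of each library subtracted within the model, brought these medians to between -0.0542 and 0.00533, r to -0.0364 and rho to 0.00355. Differences below are those of the counts as deposited. The value with the length offset is given for part of the genes, and the others stand uncorrected for length. How much of the trend comes from the RNA or the libraries and how much from the cells was not tested.

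**Figure D1:**
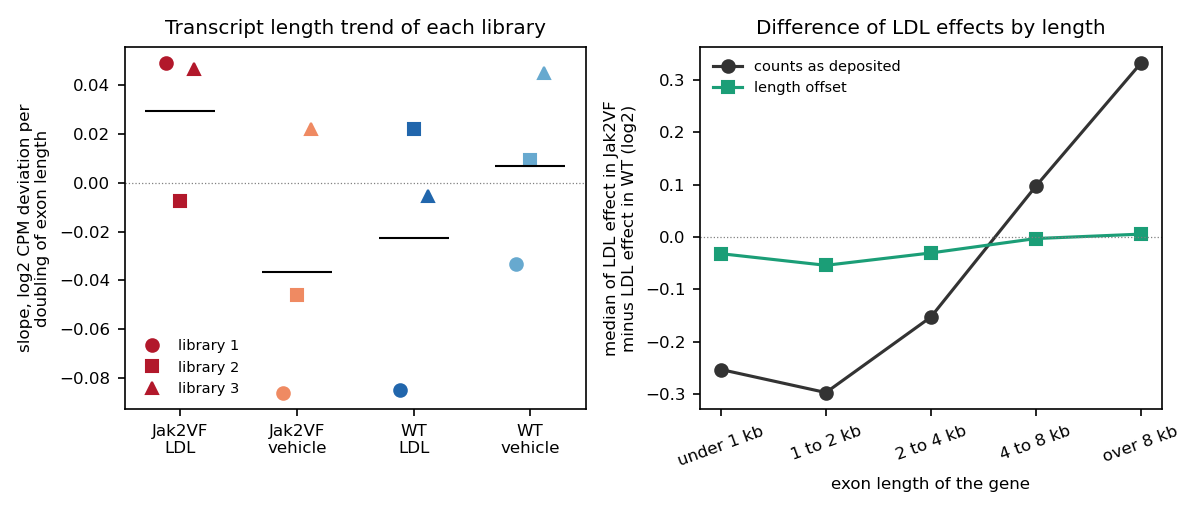
Left, slope of the log2 CPM deviation per doubling of exon length in each of the 12 libraries (points, shape by library number) with the group mean (line). Right, median over genes of the LDL effect in Jak2VF minus the LDL effect in WT (log2) by exon length, with the counts as deposited and with the length offset. The median runs from -0.253 to 0.331 as deposited and stays within -0.0542 and 0.00533 with the offset.

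In 480 genes (2.47% of those tested) the LDL effect in Jak2VF differed from that in WT at an adjusted p under 0.05. The effect was higher in Jak2VF for 293 genes (1.51%) and lower for 187 (0.962%). A higher effect can be a stronger rise or a weaker fall, and weaker falls were frequent. Of the 293 genes, 150 fell with LDL in WT and did not pass the test in Jak2VF, 31 fell in both genotypes and 9 fell in WT but rose in Jak2VF. A further 85 rose in Jak2VF and did not pass in WT, and 13 rose in both. Of the 187 genes with a lower effect, 91 fell in Jak2VF and did not pass in WT, 57 rose in WT and did not pass in Jak2VF, 10 fell in Jak2VF but rose in WT, 13 fell in both and 7 rose in both. LDL changed 3532 genes in Jak2VF (18.2%), of which 1642 rose (8.44%) and 1890 fell (9.72%). In WT it changed 2770 (14.2%), of which 1296 rose (6.67%) and 1474 fell (7.58%). The median difference over all genes tested was -0.0242, and 5236 genes had an unadjusted p under 0.05.

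**Figure D2:**
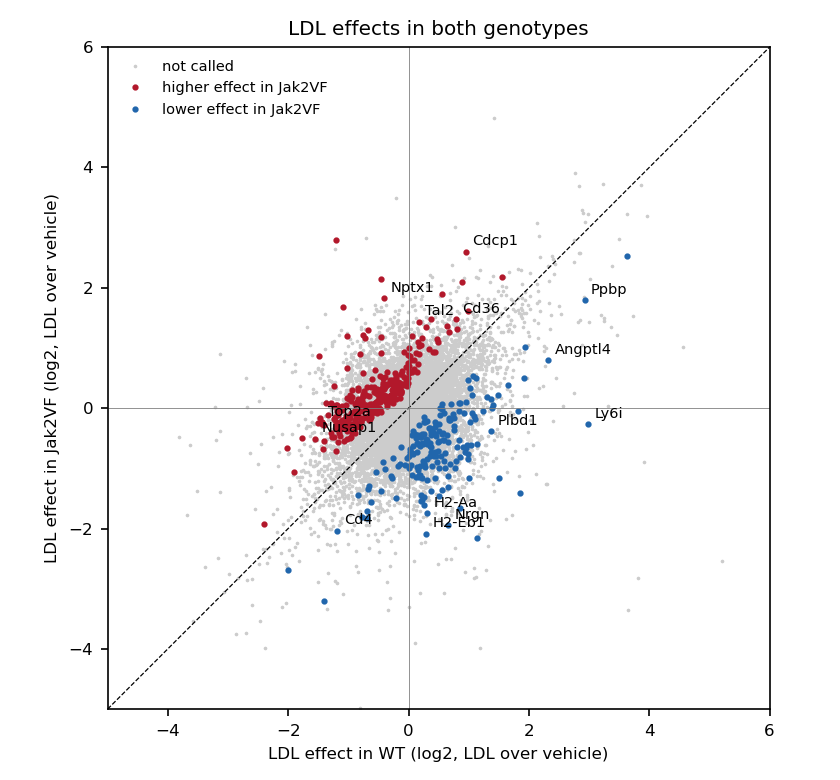
LDL effect in Jak2VF (vertical) against LDL effect in WT (horizontal), both log2 LDL over vehicle, for the tested genes, with equal effects on the dashed line and 3 genes outside the axes. The 293 genes with a higher effect in Jak2VF lie above the line, many where WT is below 0 and Jak2VF near 0, and the 187 with a lower effect lie below it.

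The number of genes depended on single libraries. It was 115, 872 and 91 without Jak2VF LDL library 1, 2 or 3, and 111, 120 and 3003 without Jak2VF vehicle library 1, 2 or 3. Without WT LDL library 1, 2 or 3 it was 100, 3600 and 190, and without WT vehicle library 1, 2 or 3 it was 1568, 110 and 107. With the length offset 701 genes differed (3.61%), 397 higher (2.04%) and 304 lower (1.56%). All 480 kept their sign with the offset, and 408 of them still passed the test (240 of the 293 higher and 168 of the 187 lower). A total of 75 genes, 52 higher and 23 lower, passed with all libraries and again in each of the 12 fits that left 1 library out, and 65 of those (44 higher and 21 lower) did the same with the length offset. With only the 12 libraries in the fit 22 genes passed (0.113%), 13 higher (0.0669%) and 9 lower (0.0463%), and 21 of the 22 were among the 480. With the offset as well 206 passed (1.06%), 126 higher (0.648%) and 80 lower (0.411%). Of the 19444 genes tested, the 65 held 6 of 32 genes of mitosis and G2/M, 2 of 11 of MHC class II and 2 of 19 chemokines. They also held 1 gene each of the PPAR, matrix, monocyte, megakaryocyte, T and NK cell, erythroid and brain lists. Ppbp counts there both as a chemokine and as a megakaryocyte gene. Named genes that lost their call in some of these fits mostly did so without the same 7 libraries: Jak2VF LDL 1 and 3, Jak2VF vehicle 1 and 2, WT LDL 1, and WT vehicle 2 and 3.

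MHC class II genes had the most negative list median. H2-Eb1, H2-Aa and H2-Ab1 encode the chains of the class II molecules and lie beside each other on chromosome 17, H2-Ab1 at 34257689-34269419, H2-Aa at 34282744-34287823 and H2-Eb1 at 34305867-34316674 (GRCm38). Promoters of class II genes carry conserved boxes that CIITA, the class II transactivator, reads together with the factors RFX and NF-Y, and the last of these binds CCAAT. Promoters of mitotic genes often hold CCAAT too, together with a cell cycle element, TTTGAA. Class II and mitotic genes are set side by side because their differences, Jak2VF minus WT, had opposite signs, although LDL lowered members of both in Jak2VF. The promoters of H2-Eb1 (chr17:34305617-34305916, plus strand) and H2-Aa (chr17:34287774-34288073, minus strand) are shown beside those of Top2a (chr11:99024140-99024439, minus strand), Ndc80 (chr17:71526808-71527107, minus strand) and Nusap1 (chr2:119618048-119618347, plus strand). Each runs 5′ to 3′ over 250 bases before and 50 after the RefSeq start on GRCm38.p6, and capitals mark CCAAT or TTTGAA on either strand (ATTGG and TTCAAA are their reverse complements).
H2-Eb1: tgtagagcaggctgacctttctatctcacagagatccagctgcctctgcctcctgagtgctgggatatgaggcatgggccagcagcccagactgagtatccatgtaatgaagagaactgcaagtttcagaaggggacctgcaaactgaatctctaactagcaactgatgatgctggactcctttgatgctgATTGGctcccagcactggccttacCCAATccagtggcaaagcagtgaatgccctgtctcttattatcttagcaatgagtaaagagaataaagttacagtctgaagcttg
H2-Aa: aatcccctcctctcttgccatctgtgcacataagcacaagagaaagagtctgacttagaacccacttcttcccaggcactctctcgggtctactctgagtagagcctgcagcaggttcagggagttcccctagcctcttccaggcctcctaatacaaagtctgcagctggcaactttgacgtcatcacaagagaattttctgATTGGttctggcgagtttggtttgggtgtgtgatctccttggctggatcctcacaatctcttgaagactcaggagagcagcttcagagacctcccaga
Top2a: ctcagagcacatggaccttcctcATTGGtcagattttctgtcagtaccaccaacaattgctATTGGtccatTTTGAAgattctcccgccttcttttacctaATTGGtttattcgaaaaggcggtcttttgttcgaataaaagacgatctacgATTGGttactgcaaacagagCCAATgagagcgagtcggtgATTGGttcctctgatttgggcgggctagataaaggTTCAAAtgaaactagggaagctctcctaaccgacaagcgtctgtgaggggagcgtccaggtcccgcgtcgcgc
Ndc80: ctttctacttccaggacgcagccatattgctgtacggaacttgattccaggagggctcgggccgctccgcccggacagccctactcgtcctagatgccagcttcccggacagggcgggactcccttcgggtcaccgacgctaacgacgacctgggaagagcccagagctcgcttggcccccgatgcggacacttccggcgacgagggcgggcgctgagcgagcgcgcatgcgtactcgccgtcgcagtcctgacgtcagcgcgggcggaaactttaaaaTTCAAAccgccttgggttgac
Nusap1: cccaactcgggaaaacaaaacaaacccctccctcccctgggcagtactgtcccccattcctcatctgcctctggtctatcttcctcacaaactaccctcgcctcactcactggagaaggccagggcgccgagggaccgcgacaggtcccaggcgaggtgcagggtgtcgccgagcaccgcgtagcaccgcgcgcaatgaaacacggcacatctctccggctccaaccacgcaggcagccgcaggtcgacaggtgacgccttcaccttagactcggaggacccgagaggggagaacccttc
The H2-Eb1 window held 2 matches, that of H2-Aa 1, that of Top2a 8, that of Ndc80 1 and that of Nusap1 0, none overlapping another. CCAAT was in 7 of 8 class II promoters (87.5%) and 20 of 27 mitosis promoters (74.1%) found in RefSeq, against 12289 of 32851 promoters in all (37.4%). TTTGAA was in 0 of 8 class II promoters and 20 of 27 mitosis promoters (74.1%), against 17.9% of all. These matches describe letters in a window and not bound sites.

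H2-Eb1, the beta chain of the I-E molecule, had 2.32, 2.95 and 2.31 CPM in Jak2VF with LDL, 13.8, 10.4 and 8.04 CPM in Jak2VF with vehicle, 8.83, 4.52 and 6.07 CPM in WT with LDL and 6.69, 4.67 and 4.54 CPM in WT with vehicle. The Jak2VF LDL libraries lay below all others, the Jak2VF vehicle libraries were mostly the highest, and the WT groups overlapped. The LDL effect was -2.09 ± 0.25 in Jak2VF and 0.29 ± 0.24 in WT, a difference of -2.38 ± 0.35 (adjusted p = 0.00293, or -2.13 with the length offset). It passed with any library left out and with only the 12 libraries in the fit. H2-Aa, the alpha chain of I-A, had 4.48, 5.4 and 4.23 CPM in Jak2VF with LDL, 20.5, 15.8 and 10.8 CPM in Jak2VF with vehicle, 16.1, 7.47 and 9.64 CPM in WT with LDL and 11.6, 8.11 and 7.19 CPM in WT with vehicle. Its Jak2VF LDL libraries again lay below all others. The difference was -2.05 ± 0.37 (adjusted p = 0.00797, or -2.01 with the offset), and it passed with any library left out but not with only the 12 libraries (adjusted p = 0.0749).

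Of the 11 class II genes tested, 4 had a lower LDL effect in Jak2VF (0.962% of all genes), 0 a higher one (1.51%) and 7 did not pass. The list median was -0.874 (-0.999 with the length offset) beside -0.0242 over all genes. The other members that passed were Cd74, the invariant chain that guides class II molecules to endosomes, at -1.92 ± 0.43 (adjusted p = 0.0242), and H2-Ab1 at -1.37 ± 0.32 (adjusted p = 0.0314). Each kept its call in 5 of the 12 fits with 1 library left out and lost it without any of the 7 libraries named above. Cd74 had 60.6 CPM in WT LDL library 1, against 22.6 and 25.4 CPM in the other WT LDL libraries. Ciita itself did not pass (-0.87 ± 0.37, adjusted p = 0.145), nor did the peptide exchange genes H2-DMa (-0.84, adjusted p = 0.0995) and H2-DMb1 (-0.38, adjusted p = 0.237). H2-Ob, part of the modulator H2-O, fell with LDL in both genotypes, by 1.11 in Jak2VF and by 0.95 in WT. Class II genes that fell with LDL numbered 5 in Jak2VF (9.72% of all genes) and 1 in WT (7.58% of all genes). Jak2VF libraries stood above WT for 2 of the 11 with vehicle (4.29% of all genes) and below WT for 6 with LDL (5.75% of all genes). B cells and dendritic cells also carry class II. Their 12 tested genes each had 0 that passed for the difference, with medians of -0.464 for B cell and -0.247 for dendritic cell genes, and 1 dendritic cell gene passed with the length offset. LDL lowered 9 of the 12 B cell genes in Jak2VF (9.72% of all genes) and 2 in WT (7.58% of all genes). The B cell levels summed to 79.7 to 84.6 CPM in Jak2VF with LDL, 115 to 144 CPM in Jak2VF with vehicle, 103 to 126 CPM in WT with LDL and 153 to 179 CPM in WT with vehicle. The dendritic cell levels summed to 146 to 169 CPM in Jak2VF with LDL, 171 to 202 CPM in Jak2VF with vehicle, 160 to 201 CPM in WT with LDL and 138 to 168 CPM in WT with vehicle. The groups of a genotype did not overlap, except those of WT for dendritic cell genes, and LDL libraries were the lower ones in Jak2VF for both lists and in WT for B cell genes. The part of such cells in the class II differences was not tested.

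Interferon gamma is the main inducer of CIITA, and of 22 of its other target genes 0 passed as deposited, with a median of -0.492. With the length offset Irf8, a myeloid interferon regulatory factor, passed (-0.69, adjusted p = 0.0379). As deposited Irf8 (-0.49, adjusted p = 0.0515), the feedback inhibitor Socs1 (-1.41, adjusted p = 0.0556) and the regulatory factor Irf1 (-0.54, adjusted p = 0.0807) came nearest. Of the 22 interferon gamma targets, 4 were lower in Jak2VF than in WT with vehicle (median -0.364, 5.26% of all genes). With LDL 10 were lower (median -0.818, 5.75% of all genes). Among 23 type I interferon targets 0 passed and the median was 0.0501, while 12 were lower in Jak2VF than in WT with vehicle and 13 with LDL.

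Mitotic genes differed from WT with the other sign: LDL lowered many of them in both genotypes, and by less in Jak2VF. Top2a, the topoisomerase that untangles chromosomes, had 219, 190 and 241 CPM in Jak2VF with LDL, 210, 244 and 310 CPM in Jak2VF with vehicle, 118, 170 and 120 CPM in WT with LDL and 308, 380 and 420 CPM in WT with vehicle. The Jak2VF groups overlapped, whereas every WT LDL library lay below every WT vehicle library and below every Jak2VF library. Its LDL effect was -0.23 ± 0.16 in Jak2VF (adjusted p = 0.304) and -1.44 ± 0.16 in WT, a difference of 1.21 ± 0.22 (adjusted p = 0.00797). Top2a has 9013 bases of exon, and the difference was 0.95 with the length offset, where it still passed. Ndc80, a kinetochore protein that holds microtubules, had 22.8, 26.1 and 25.4 CPM in Jak2VF with LDL, 31.2, 31.1 and 32 CPM in Jak2VF with vehicle, 17.3, 18.1 and 15.7 CPM in WT with LDL and 37.3, 40.8 and 39.7 CPM in WT with vehicle. No groups overlapped for Ndc80, and the Jak2VF groups lay between the WT groups. The difference was 0.86 ± 0.13 (adjusted p = 0.00293, or 0.69 with the length offset). Nusap1, which bundles spindle microtubules, differed by 1.05 ± 0.15 (adjusted p = 0.00293, or 1.06 with the offset). Kif23, a motor of cytokinesis, differed by 0.87 ± 0.14 (adjusted p = 0.00546, or 0.64 with the offset). All 4 passed with any library left out, with and without the length offset. With only the 12 libraries Ndc80 and Nusap1 passed, and Top2a (adjusted p = 0.0768) and Kif23 (adjusted p = 0.0682) did not.

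Of 32 genes of mitosis and G2/M, 18 had a higher LDL effect in Jak2VF (1.51% of all genes), 0 a lower one (0.962%) and 14 did not pass. The list median was 0.732 as deposited and 0.616 with the length offset, under which 19 passed, all higher (2.04% of all genes). The count of members ran from 6 to 22 when 1 library was left out (10 to 21 with the offset), and 2 members passed with only the 12 libraries. LDL lowered 19 of the 32 in Jak2VF (9.72% of all genes), with a median of -0.441. In WT it lowered 31 of the 32 (7.58% of all genes), with a median of -1.12. With LDL 19 members were higher in Jak2VF than in WT (4.21% of all genes), and with vehicle 7 were lower (5.26% of all genes). As deposited the difference was largest for Kif11, the spindle motor (1.25 ± 0.23), and Top2a, and Kif11 passed with any library left out. With the length offset the difference was 1.06 for Kif11, 1.06 for Nusap1 and 0.95 for Top2a. Ube2c, an enzyme of the anaphase complex, fell in both genotypes, by 0.86 in Jak2VF and by 0.70 in WT. Cdc20, its activator, fell by 0.77 in Jak2VF and had an effect of -0.49 in WT (adjusted p = 0.0525). Neither difference passed.

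**Figure D3:**
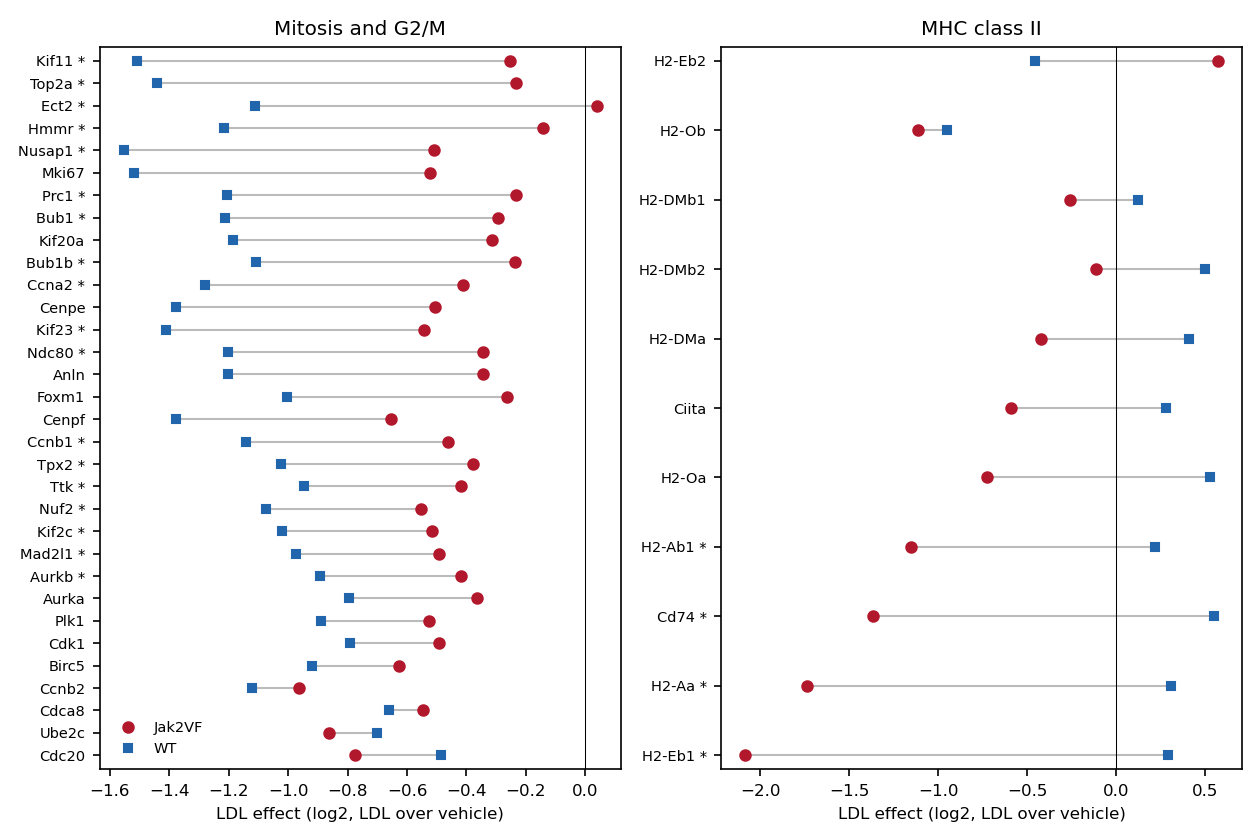
LDL effect (log2, LDL over vehicle) of each tested gene of mitosis and G2/M (left) and MHC class II (right) in Jak2VF (circles) and WT (squares), joined by a line, with an asterisk where the difference passed. For mitosis the Jak2VF circles lie right of the WT squares in 30 of 32 genes, and for class II they lie left of them in all but H2-Eb2.

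DNA replication genes moved with the mitotic genes, by smaller amounts. Of 28 tested, 7 had a higher LDL effect in Jak2VF (1.51% of all genes) and 0 a lower one (0.962%). The median was 0.377, or 0.415 with the length offset, where 10 were higher (2.04% of all genes). As deposited, however, the count ran from 0 to 12 with 1 library left out. LDL lowered 7 of the 28 in Jak2VF (9.72% of all genes) and 23 in WT (7.58% of all genes). Pola1, the catalytic subunit of DNA polymerase alpha, differed by 1.08 ± 0.25 (adjusted p = 0.028, or 0.83 with the length offset). The helicase genes Mcm10, Mcm4 and Mcm6 differed by 0.70 ± 0.16, 0.63 ± 0.16 and 0.48 ± 0.12, or by 0.48, 0.68 and 0.44 with the offset. Of the 12 fits with 1 library left out, Mcm10 kept its call in 5, Pola1 and Mcm4 in 4 and Mcm6 in 3, losing it without the 7 libraries named above and, except for Mcm10, without WT LDL library 3 too. Mcm6 also lost it without Jak2VF LDL library 2. Pcna, the sliding clamp, passed with the offset only (0.53, adjusted p = 0.0047).

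Other genes of replication and repair held with any library left out. Clspn, which carries the replication checkpoint signal, had 29.3, 25.8 and 33.9 CPM in Jak2VF with LDL, 24.6, 27.4 and 32.4 CPM in Jak2VF with vehicle, 15.3, 23.4 and 14.3 CPM in WT with LDL and 36.6, 45.2 and 47.5 CPM in WT with vehicle. Only the WT groups stood apart by treatment. The difference was 1.36 ± 0.22 (adjusted p = 0.00546, or 1.17 with the length offset), and with only the 12 libraries it did not pass (adjusted p = 0.0687). Zranb3, which remodels stalled forks, differed by 1.24 ± 0.19 (adjusted p = 0.00312, or 0.96 with the length offset). E2f8, a cell cycle transcription factor, and Neil3, a DNA glycosylase, were chosen after their values were seen and differed by 1.22 ± 0.23 and 1.26 ± 0.20.

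Angptl4, a secreted inhibitor of lipoprotein lipase and a PPAR target, rose with LDL in both genotypes but less in Jak2VF. It had 209, 277 and 215 CPM in Jak2VF with LDL, 169, 128 and 106 CPM in Jak2VF with vehicle, 352, 236 and 285 CPM in WT with LDL and 77.3, 50.1 and 47.3 CPM in WT with vehicle. The LDL groups overlapped between genotypes, and every Jak2VF vehicle library lay above every WT vehicle library. The LDL effect was 0.80 ± 0.20 in Jak2VF and 2.32 ± 0.20 in WT, a difference of -1.52 ± 0.28 (adjusted p = 0.00797, or -1.46 with the length offset) that passed with any library left out but not with only the 12 libraries (adjusted p = 0.0763). Fabp4, a fatty acid binding protein, had an LDL effect of -0.21 in Jak2VF (adjusted p = 0.257) and rose by 0.69 in WT, a difference of -0.89 ± 0.18 (adjusted p = 0.0122, and 0.0532 without Jak2VF LDL library 3). Ucp2, a mitochondrial carrier, differed by -0.75 ± 0.19, and kept its call in 4 of the 12 fits with 1 library left out. Pnpla2, the lipid droplet lipase ATGL, differed by -0.86 ± 0.22.

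Cd36, a scavenger receptor that takes up oxidised LDL, went against these genes. Its CPM were 440, 393 and 421 in Jak2VF with LDL, 135, 164 and 151 in Jak2VF with vehicle, 430, 541 and 518 in WT with LDL and 270, 291 and 299 in WT with vehicle. Every Jak2VF vehicle library lay below every WT vehicle library, and the LDL groups overlapped. The LDL effect was 1.48 ± 0.10 in Jak2VF and 0.79 ± 0.09 in WT, a difference of 0.69 ± 0.13 (adjusted p = 0.011, and 0.0532 without Jak2VF vehicle library 1). Of 23 PPAR targets and lipid droplet genes 4 had a lower (0.962% of all genes) and 1 a higher LDL effect in Jak2VF (1.51%). The median was -0.271, and 2 to 12 passed when 1 library was left out. LDL raised 9 of the 23 in Jak2VF (8.44% of all genes) and 14 in WT (6.67% of all genes).

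Cholesterol synthesis, by contrast, fell with LDL in both genotypes. LDL lowered 23 of 25 of its genes in Jak2VF (9.72% of all genes), with a median of -1.11. In WT it lowered 22 of 25 (7.58% of all genes), with a median of -1.14. Idi1, an isomerase of the mevalonate pathway, was the only member whose effects differed (0.48 ± 0.12, adjusted p = 0.0396), with LDL effects of -1.93 in Jak2VF and -2.40 in WT. Of 14 LXR targets and efflux genes 2 had a lower effect in Jak2VF (0.962% of all genes). Apoe, the apolipoprotein that macrophages load onto particles, had 2970, 3520 and 2590 CPM in Jak2VF with LDL, 8220, 6830 and 4920 CPM in Jak2VF with vehicle, 8390, 4870 and 5950 CPM in WT with LDL and 7180, 5110 and 4710 CPM in WT with vehicle. Its Jak2VF LDL libraries lay below all others, and the difference was -1.32 ± 0.32 (adjusted p = 0.0357). Pltp, the phospholipid transfer protein, differed by -0.80 ± 0.21 (adjusted p = 0.0473). None of Apoe, Pltp, Idi1 and Pnpla2 was among the 65 genes that held with any library left out. Of 19 NRF2 targets 15 rose in each genotype (8.44% of all genes in Jak2VF and 6.67% in WT), and 0 of the differences passed.

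**Figure D4:**
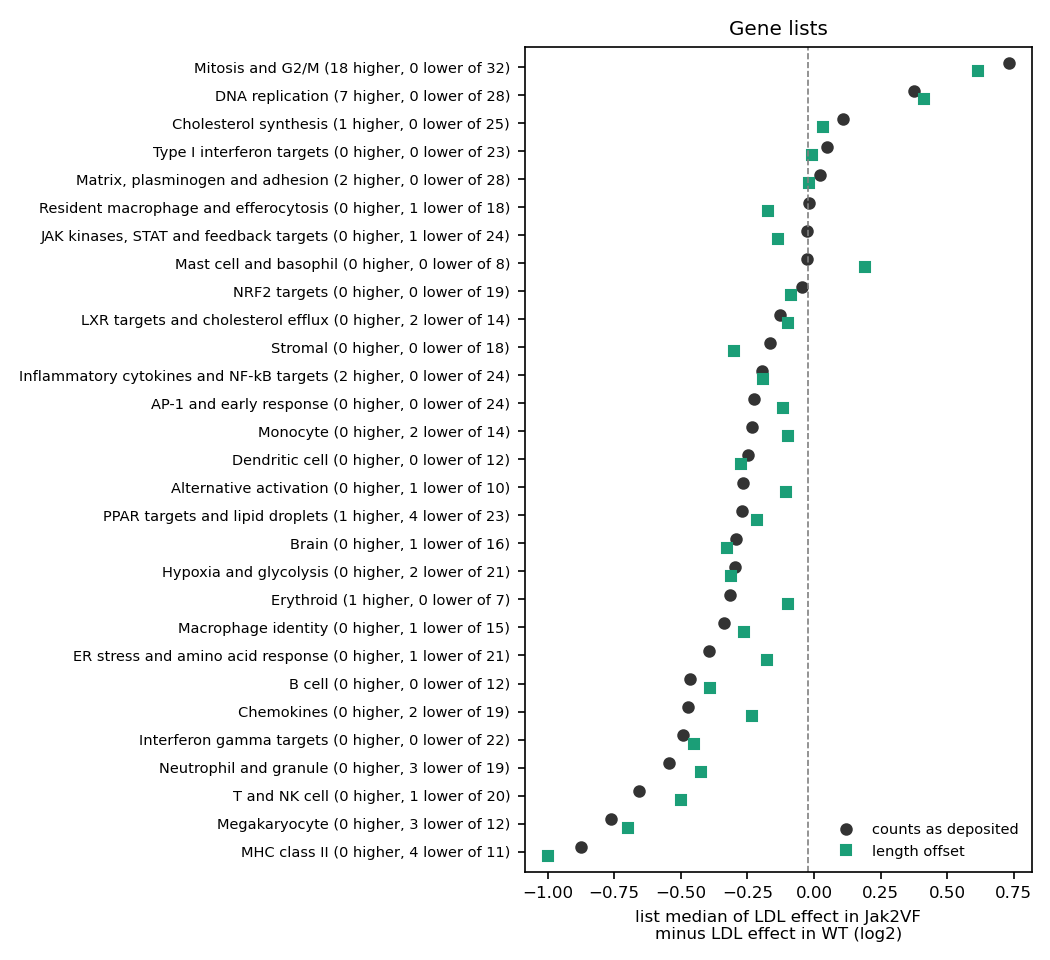
Median over the tested members of each gene list of the LDL effect in Jak2VF minus the LDL effect in WT (log2), with the counts as deposited (circles) and with the length offset (squares). The dashed line is the median over all genes tested, -0.0242. Mitosis stands highest at 0.732 and MHC class II lowest at -0.874, and labels give the members that passed as deposited.

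Among surface proteins and factors, Cdcp1, a membrane glycoprotein phosphorylated by SRC kinases, had 3.88, 4.15 and 3.68 CPM in Jak2VF with LDL, 0.73, 0.428 and 0.76 CPM in Jak2VF with vehicle, 3.2, 2.34 and 2.92 CPM in WT with LDL and 1.58, 1.7 and 1.1 CPM in WT with vehicle. None of the groups overlapped, and the Jak2VF groups were the outermost. LDL raised it by 2.60 ± 0.20 in Jak2VF and by 0.95 ± 0.19 in WT, a difference of 1.65 ± 0.28 (adjusted p = 0.00616, or 1.46 with the length offset). Tal2, a basic helix-loop-helix factor, had 16.1, 13.3 and 13.2 CPM in Jak2VF with LDL, 5.2, 5.6 and 4.91 CPM in Jak2VF with vehicle, 12.4, 10.1 and 9.64 CPM in WT with LDL and 10.4, 10.1 and 8 CPM in WT with vehicle. Its Jak2VF groups stood far apart (LDL effect 1.44 ± 0.13), and the WT groups overlapped (0.17 ± 0.13, adjusted p = 0.399). The difference for Tal2 was 1.26 ± 0.18 (adjusted p = 0.00293).

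Alcam, an adhesion molecule, had 149, 133 and 144 CPM in Jak2VF with LDL, 72.8, 78.7 and 78.3 CPM in Jak2VF with vehicle, 117, 140 and 117 CPM in WT with LDL and 120, 131 and 126 CPM in WT with vehicle. The Jak2VF vehicle libraries were the lowest, the WT groups overlapped, and the Jak2VF LDL libraries overlapped those of WT with LDL. The difference was 0.90 ± 0.12 (adjusted p = 0.00293, or 0.70 with the length offset). Mboat1, a lysophospholipid acyltransferase, rose by 0.34 in Jak2VF and fell by 0.63 in WT, a difference of 0.97 ± 0.16 (adjusted p = 0.00546). Cdcp1, Tal2, Alcam and Mboat1 passed with any library left out, with and without the offset. With only the 12 libraries Cdcp1 did not pass (adjusted p = 0.0682) and the other 3 did. Spp1, the matrix cytokine osteopontin, rose by 0.52 in Jak2VF and had an effect of -0.39 in WT (adjusted p = 0.118), a difference of 0.91 ± 0.23 (adjusted p = 0.0388). With Cdcp1 it was 1 of the 2 members called higher among 28 genes of matrix, plasminogen and adhesion (1.51% of all genes). It was not among the 65 genes that held with any library left out.

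Nptx1, a secreted pentraxin known from neurons, and Arfgef3, of the ARF exchange factor family, had the largest positive differences under the naming rule. Nptx1 had 3.11, 2.66 and 2.94 CPM in Jak2VF with LDL, 0.776, 0.776 and 0.896 CPM in Jak2VF with vehicle, 1.31, 1.57 and 2.29 CPM in WT with LDL and 1.69, 2.66 and 2.44 CPM in WT with vehicle. Its Jak2VF groups did not overlap and its WT groups did. The difference was 2.23 ± 0.47 (adjusted p = 0.0179) and kept its call in 5 of the 12 fits with 1 library left out, or in all 12 with the length offset. Arfgef3 did likewise. Arfgef3, with 14579 bases of exon, differed by 1.97 ± 0.41 as deposited and by 1.58 with the length offset. Etv1, an ETS factor with 13296 bases of exon, differed by 1.37 ± 0.26 as deposited and by 0.99 with the offset, and lost its call without WT LDL library 1.

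Of 24 inflammatory cytokines and NF-kB targets 2 had a higher effect in Jak2VF (1.51% of all genes) and 0 a lower one (0.962%). The list median was -0.194, of the other sign than these 2. Nlrp3, the inflammasome sensor, rose by 0.32 in Jak2VF and fell by 0.41 in WT, a difference of 0.73 ± 0.15 (adjusted p = 0.0165). Il10, an anti-inflammatory cytokine, had 0.464, 0.519 and 0.495 CPM in Jak2VF with LDL, 0.479, 0.589 and 0.326 CPM in Jak2VF with vehicle, 0.612, 0.772 and 0.59 CPM in WT with LDL and 1.94, 1.58 and 1.6 CPM in WT with vehicle. The WT vehicle libraries were the highest and the Jak2VF groups overlapped. The difference was 1.45 ± 0.38 (adjusted p = 0.0461), and it passed in 3 of the 12 fits with 1 library left out, those without Jak2VF vehicle library 3, WT LDL library 2 or WT vehicle library 1. Neither Nlrp3 nor Il10 was among the 65 genes that held with any library left out. Of 19 chemokines 2 had a lower effect in Jak2VF (0.962% of all genes). With the length offset 3 had a higher (2.04% of all genes) and 4 a lower one (1.56%). Ccl6, a CC chemokine, had 286, 307 and 285 CPM in Jak2VF with LDL, 381, 330 and 268 CPM in Jak2VF with vehicle, 565, 439 and 531 CPM in WT with LDL and 339, 296 and 278 CPM in WT with vehicle. Only the WT LDL libraries stood apart, and the difference was -0.90 ± 0.17 (adjusted p = 0.00797), which held with any library left out.

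Of 24 JAK kinases, STATs and feedback targets 1 had a lower LDL effect in Jak2VF, Lcn2, where 0.962% of all genes did, and the median was -0.0259. With the length offset 2 had a lower effect. Pim1, a kinase induced by STAT5, had LDL effects of 0.99 in both Jak2VF and WT, and Socs2, a feedback inhibitor, of -0.04 in Jak2VF and -0.05 in WT. Socs3 (-0.17, adjusted p = 0.442) and Cish (-0.77, adjusted p = 0.134), feedback inhibitors too, did not pass.

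Some markers of neutrophils and megakaryocytes differed in their LDL effects. In whole cultures fewer cells of a type and less RNA per cell cannot be told apart. Of 19 neutrophil and granule genes 3 had a lower LDL effect in Jak2VF (0.962% of all genes) and 0 a higher one (1.51%), with a median of -0.544. Their summed level was 563 to 617 CPM in Jak2VF with LDL, 702 to 887 CPM in Jak2VF with vehicle, 404 to 482 CPM in WT with LDL and 283 to 353 CPM in WT with vehicle. Lcn2, a secreted iron siderophore binder, had 15.8, 19.6 and 16.8 CPM in Jak2VF with LDL, 35.1, 34.3 and 27.6 CPM in Jak2VF with vehicle, 16.5, 9.62 and 12 CPM in WT with LDL and 10.5, 9.7 and 7.4 CPM in WT with vehicle. The Jak2VF vehicle libraries stood above all others, and Lcn2 differed by -1.36 ± 0.30 (adjusted p = 0.0234). Prtn3, the granule protease proteinase 3, differed by -1.74 ± 0.39 and Csf3r, the G-CSF receptor, by -0.64 ± 0.15. With vehicle 14 of the 19 were higher in Jak2VF than in WT (median 1.54, background 4.29% of genes) and with LDL 11 (median 0.845, background 4.21%). The list count ran from 0 to 9 with 1 library left out.

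Megakaryocyte and platelet genes that passed with all libraries in the fit also had lower effects in Jak2VF. Of 12 tested 3 had a lower LDL effect in Jak2VF (0.962% of all genes) and 0 a higher one (1.51%), with a median of -0.761. With 1 library left out 1 to 7 passed, among them 0 to 1 with a higher effect. Ppbp, a platelet CXC chemokine, had 176, 169 and 158 CPM in Jak2VF with LDL, 60.8, 46.7 and 37.8 CPM in Jak2VF with vehicle, 205, 203 and 223 CPM in WT with LDL and 31.5, 27.9 and 23.5 CPM in WT with vehicle. No groups overlapped, and the WT groups were the outermost. LDL raised Ppbp by 1.79 ± 0.13 in Jak2VF and by 2.93 ± 0.14 in WT, a difference of -1.14 ± 0.19 (adjusted p = 0.00546, or -0.90 with the length offset). It passed with any library left out but not with only the 12 libraries (adjusted p = 0.0682). Gp9 and Itga2b, subunits of platelet adhesion receptors, fell with LDL in Jak2VF by 1.31 and by 0.80, did not pass in WT, and differed by -1.96 ± 0.43 and -1.15 ± 0.28. Levels of Gp9 were low, with means of 0.938 CPM in Jak2VF with LDL, 2.33 CPM in Jak2VF with vehicle, 0.587 CPM in WT with LDL and 0.372 CPM in WT with vehicle. Gp9 and Itga2b each kept the call in 5 of the 12 fits with 1 library left out, as did Lcn2, Prtn3 and Csf3r. The summed level of the list was 1000 to 1200 CPM in Jak2VF with LDL, 583 to 968 CPM in Jak2VF with vehicle, 1400 to 2120 CPM in WT with LDL and 627 to 931 CPM in WT with vehicle. With vehicle 9 of the 12 were higher in Jak2VF than in WT (median 1.69, background 4.29% of genes). The part of such cells in the differences was not tested. Of 14 monocyte genes 2 had a lower effect in Jak2VF (0.962% of all genes). The 14 summed to 3470 to 3940 CPM in Jak2VF with LDL and 2770 to 4340 CPM in Jak2VF with vehicle. In WT they summed to 2330 to 3520 CPM with LDL and 2870 to 3730 CPM with vehicle.

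Cd4, a T cell coreceptor that macrophages can also express, had 3.85, 3.94 and 3.38 CPM in Jak2VF with LDL, 14.6, 16.4 and 14.9 CPM in Jak2VF with vehicle, 11.1, 9.87 and 10.2 CPM in WT with LDL and 22.7, 23.1 and 25 CPM in WT with vehicle. No groups overlapped. It fell with LDL by 2.04 ± 0.09 in Jak2VF and by 1.18 ± 0.09 in WT, a difference of -0.86 ± 0.12 (adjusted p = 0.00293), and was the only called member of 20 T and NK cell genes, whose levels summed to 18.7 to 52.6 CPM over the 12 libraries. Plbd1, a lysosomal phospholipase B-like protein, had 9.69, 10.3 and 8.22 CPM in Jak2VF with LDL, 14.6, 12.4 and 9.85 CPM in Jak2VF with vehicle, 21.4, 14.4 and 17.7 CPM in WT with LDL and 8.46, 6.67 and 5.46 CPM in WT with vehicle. Its WT groups did not overlap, and its Jak2VF groups did. The difference was -1.76 ± 0.29 (adjusted p = 0.00546), and both Cd4 and Plbd1 passed with any library left out. Ly6c2, a marker of inflammatory monocytes, fell by 0.99 in Jak2VF and rose by 0.61 in WT, a difference of -1.61 ± 0.27 (adjusted p = 0.00616).

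The most negative differences under the naming rule were those of Ly6i and Nrgn, both at low levels. Ly6i, of the Ly6 surface family, had 0.956, 1.06 and 0.769 CPM in Jak2VF with LDL, 1.94, 0.75 and 0.624 CPM in Jak2VF with vehicle, 3.98, 1.54 and 1.41 CPM in WT with LDL and 0.355, 0.226 and 0.289 CPM in WT with vehicle. The Jak2VF groups overlapped, and every WT LDL library lay above every WT vehicle library. Ly6i differed by -3.25 ± 0.71 (adjusted p = 0.0219), kept its call in 6 of the 12 fits with 1 library left out and shares sequence with neighbouring Ly6 genes, so its counts are uncertain. Nrgn, a calmodulin binding protein known from neurons and also found in platelets, had 0.683, 0.754 and 0.44 CPM in Jak2VF with LDL, 3.54, 2.06 and 1.68 CPM in Jak2VF with vehicle, 0.919, 0.579 and 0.787 CPM in WT with LDL and 0.71, 0.396 and 0.341 CPM in WT with vehicle. Its Jak2VF vehicle libraries stood above all others. The difference was -2.60 ± 0.47 (adjusted p = 0.00797), and it passed with any library left out but not with only the 12 libraries (adjusted p = 0.0749).

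Single members of the macrophage lists passed, where 2.47% of all genes did. Cebpa, a myeloid transcription factor, was the only called member of 15 macrophage identity genes (-0.83 ± 0.22, adjusted p = 0.0474). C1qc, a chain of complement C1q, was the only one of 18 genes of resident macrophages and efferocytosis (-1.28 ± 0.30, adjusted p = 0.0289). With the length offset 2 of the 18 were higher and 4 lower. Neither Cebpa nor C1qc was among the 65 genes that held with any library left out. Tfrc, the transferrin receptor, which the erythroid list held, had 150, 125 and 150 CPM in Jak2VF with LDL, 127, 122 and 123 CPM in Jak2VF with vehicle, 74.6, 97.5 and 67.4 CPM in WT with LDL and 127, 154 and 181 CPM in WT with vehicle. The WT LDL libraries lay below all others, and the difference was 1.13 ± 0.19 (adjusted p = 0.00616). Of 7 erythroid genes tested it was the only 1 that passed. Among the lists not yet named, 2 of 21 genes of hypoxia and glycolysis and 1 of 21 of ER stress and amino acid response had a lower effect in Jak2VF. So did 1 of 10 of alternative activation and 1 of 16 brain genes, where 0.962% of all genes did. Further, 0 of 24 AP-1 and early response genes, 12 dendritic cell, 12 B cell, 8 mast cell and 18 stromal genes passed.

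**Figure D5:**
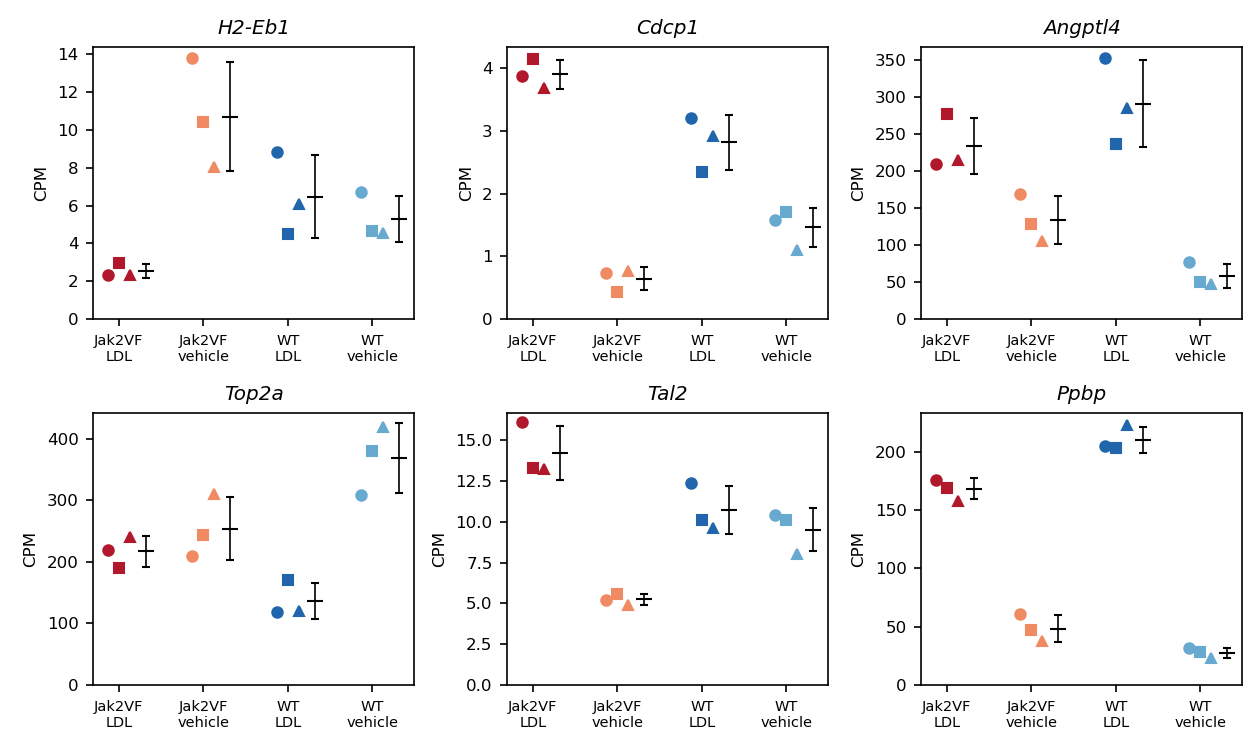
CPM of 6 genes in each library (points, shape by library number) of the 4 groups, with the mean and SD beside them. H2-Eb1 is lowest in Jak2VF with LDL at 2.53 ± 0.365 CPM, Top2a is lowest in WT with LDL at 136 ± 29.2 CPM, and Ppbp is highest in WT with LDL at 210 ± 11.3 CPM (SD, n = 3 each).

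The differences between LDL effects arose under either treatment. Of the 293 genes with a higher effect in Jak2VF, 146 were lower in Jak2VF than in WT with vehicle and did not pass with LDL, 89 were higher with LDL and did not pass with vehicle, and 31 did both. Cdcp1 belonged to the first kind (a Jak2VF effect of -1.18 with vehicle and of 0.47, adjusted p = 0.0874, with LDL) and Top2a to those that did both (-0.54 with vehicle and 0.67 with LDL). Of the 187 genes with a lower effect, 80 were lower with LDL only, 66 were higher with vehicle only and 8 did both. H2-Eb1 was higher in Jak2VF with vehicle (1.02) and lower with LDL (-1.35), while Angptl4 was higher with vehicle (1.21) and did not pass with LDL (-0.32, adjusted p = 0.278). Over all genes Jak2VF differed from WT in 1857 with vehicle (9.55%), 835 higher (4.29%) and 1022 lower (5.26%), and in 1938 with LDL (9.97%), 819 higher (4.21%) and 1119 lower (5.75%).

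Few LDL effects in Jak2VF could be told from those in the other mutants of the series. The Jak2VF effect differed from that in Dnmt3aKO (Dnmt3afl/fl;Vav-Cre) for 17 genes (0.0874%), 4 higher (0.0206%) and 13 lower (0.0669%), and from that in Tet2KO (Tet2fl/fl;Vav-Cre) for 4 (0.0206%), all lower, with 1244 and 4050 genes at an unadjusted p under 0.05. For H2-Eb1 the LDL effect was -2.09 in Jak2VF, -0.75 in Dnmt3aKO, -1.11 in Tet2KO and 0.29 in WT, and the tests of Jak2VF against Dnmt3aKO (adjusted p = 0.255) and Tet2KO (adjusted p = 0.222) did not pass. For Top2a it was -0.23 in Jak2VF, -0.68 in Dnmt3aKO, -0.94 in Tet2KO and -1.44 in WT. For Cdcp1 it was 2.60 in Jak2VF, 2.78 in Dnmt3aKO, 2.55 in Tet2KO and 0.95 in WT, and for Angptl4 0.80 in Jak2VF, 0.56 in Dnmt3aKO, 1.30 in Tet2KO and 2.32 in WT. In these genes the WT effect lay outside the range of the 3 mutants, whose differences from WT share the WT libraries. Ly6c2 had a lower effect in Jak2VF than in both WT and Dnmt3aKO (-1.38 ± 0.26 against Dnmt3aKO, adjusted p = 0.0388). Abcg1, a cholesterol efflux transporter, had a higher effect in Jak2VF than in Dnmt3aKO (1.04 ± 0.14, adjusted p = 0.00252). Lcn2 (-2.59 ± 0.32, adjusted p = 0.00159), S100a8, a neutrophil calcium binding protein (-1.93 ± 0.29), Il1f9, an interleukin 1 family cytokine (-2.33 ± 0.31), and Cxcl1, a neutrophil chemokine (-1.37 ± 0.23), made up the 4 with a lower effect in Jak2VF than in Tet2KO.

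The series holds 5 other WT libraries, named batch 1 in the labels, that the comparison did not use. Their own LDL effect passed for 0 of 15481 genes in edgeR's quasi-likelihood test (707 at an unadjusted p under 0.05). The genes with a higher effect in Jak2VF, 281 of which were tested there, had a median LDL effect of 0.163 in Jak2VF, -0.56 in WT of the main set and -0.186 in WT of batch 1. Those with a lower effect, 168 of which were tested there, had medians of -0.575 in Jak2VF, 0.393 in WT of the main set and 0.111 in WT of batch 1. The batch 1 value lay nearer to the WT value for 156 of 281 and 122 of 168 genes, and nearer to the Jak2VF value for 125 and 46. These genes were chosen for a gap between those main-set values, and no batch 1 effect passed, so nearness cannot test the difference. H2-Eb1 had a WT effect of -0.02 ± 0.48 in batch 1 and 0.29 ± 0.24 in the main set, and Cdcp1 of 0.15 ± 0.45 and 0.95 ± 0.19. For Top2a these were -0.65 ± 0.32 and -1.44 ± 0.16, and for Angptl4 0.21 ± 0.14 and 2.32 ± 0.20. In batch 1 Top2a and Angptl4 lay nearer to their Jak2VF effects (-0.23 and 0.80), and H2-Eb1 and Cdcp1 nearer to those of WT. With no Jak2VF library in batch 1, the difference itself could not be computed there.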

How the data were processed

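The authors deposited gene counts: whole numbers for 52550 genes in each main-set library. The deposited name calls them normalised, but library totals differ up to 1.82-fold (24105237 to 43904761), so they were read as unscaled. Per the submitters' processing notes the genome build was mm10. Which aligner and counting tool were used is not given in the sources used here. The labels' protocols name both Ribo-Zero depletion and poly-A selection.

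Symbols and exon lengths came from GENCODE M21 (GRCm38). A gene was tested when 3 or more of the 24 main-set libraries held 10 or more counts, which kept 19444 genes and 99.9% of the counts. R 4.3.3 with edgeR 4.0.16 gave TMM scaling and a quasi-likelihood test with 1 mean per group and all 24 libraries, so that the other genotypes added to the estimate of spread (16 residual degrees of freedom). The comparison was LDL minus vehicle in Jak2VF, less LDL minus vehicle in WT. "Passed", "called", "rose" and "fell" mean a two-sided p under 0.05 after Benjamini-Hochberg adjustment over all genes. Values after ± are SE for log2 effects and SD for CPM. The length offset was a lowess trend (span 0.3) of each library's log2 CPM deviation on log2 exon length. Batch 1 was fitted apart, with a minimum of 2 libraries. The code was tested on simulated data.

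Genes named by rule were Jak2, H2-Eb1, Cdcp1, Angptl4 and Top2a, then among called genes with a proper symbol and 50 or more scaled counts in a group mean the 6 highest and the 6 lowest differences, up to 10 called with the 12 libraries only, and up to 4 of each list with 3 or more called. A gene that met the rule is not reported here. Other list members, and genes from the tests against the other mutants, were named after their values were seen. The members and lists were chosen with earlier results of these data known. Alternatives were RLE or no scaling, DESeq2 1.42.0, limma-voom (limma 3.58.1), other count filters, replicate blocks, length corrections and left-out libraries. Few counts limit precision.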

Additional observations from a re-analysis of the deposited data

Results flagged for a closer look

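These results were picked out because effects of the same treatment differed between genotypes by a test of the difference itself. The LDL effect differed between Jak2VF and WT in 480 genes, between Jak2VF and Dnmt3aKO in 17 genes and between Jak2VF and Tet2KO in 4 genes. The last of these were Lcn2, Il1f9, S100a8 and Cxcl1, all genes linked to neutrophils or inflammation and all with a lower effect in Jak2VF than in Tet2KO. For Lcn2 the LDL effect was -0.89 in Jak2VF, 0.10 in Dnmt3aKO, 0.47 in WT and 1.70 in Tet2KO. Il1f9 and S100a8 did not pass against Dnmt3aKO (adjusted p = 0.461 and 0.642) or WT (adjusted p = 0.0679 and 0.091). Cxcl1 passed against Dnmt3aKO (adjusted p = 0.0289) but not against WT (adjusted p = 0.0629).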

How the results depend on the processing

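All 37 named genes that passed kept the sign of their difference in all 41 alternatives. Most were named for passing in these same libraries, so the kept signs are not independent support. Of the 37, 37 passed with DESeq2 or the length offset, 11 with only the 12 libraries and 2 without scaling between libraries. Without Jak2VF vehicle library 1 and WT LDL library 1, 10 passed, and 0 passed with a block within genotype by description number. The count of 480 genes was 480 with RLE scaling and 549 with limma-voom, and moved more elsewhere: 4 without scaling between libraries, 1785 with DESeq2, 6873 with limma-voom and sample quality weights, 1963 without a filter on low counts, 729 with at least 50 counts in 3 libraries (345 higher and 384 lower), and 22 with only the 12 libraries. With each library left out it ran from 91 to 3600, and with the length offset it was 250, 1059 and 176 without Jak2VF LDL library 1, 2 or 3, 244, 252 and 1900 without Jak2VF vehicle 1, 2 or 3, 219, 2954 and 346 without WT LDL 1, 2 or 3, and 1467, 206 and 199 without WT vehicle 1, 2 or 3. LDL effects numbered 2028 to 5027 in Jak2VF and 1867 to 3930 in WT with 1 library left out, and the difference in length slope was 0.0644 to 0.125. The length slope of a library as a covariate gave 309, and the offset with only 12 libraries 206. Without Jak2VF vehicle library 1 and WT LDL library 1, chosen after the data were seen for their slopes, 27 genes passed, or 98 with the offset, and the difference in length slope was 0.0396. The offset with 12 libraries or with 1 left out was also chosen after seeing the data. The cause of these moves was not tested, beyond the fewer libraries of the reduced fits.

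Correlations of same-numbered libraries' deviations ran from -0.442 to 0.423, both between genotypes. By title number, LDL and vehicle libraries of Jak2VF correlated at -0.227, 0.13 and 0.232, and those of WT at 0.402, 0.0737 and 0.0111. By description number the values were -0.227 and -0.429 in Jak2VF and 0.402 and 0.0737 in WT. These values do not settle whether same-numbered libraries share a mouse or culture. A replicate block by the number in the titles gave 654 genes, 1549 within genotype (8 residual degrees of freedom) and 1413 with the length offset as well. A block by the number in the descriptions left 4 residual degrees of freedom and 0 genes, with 1094 at an unadjusted p under 0.05.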
